A study of Mus musculus with 10 samples.

Results

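The genes described here make, carry, break down and sense serotonin, dopamine and noradrenaline, the main monoamine transmitters of the brain. The members were chosen by function: 38 symbols, comprising the enzymes of synthesis and their cofactor pathway, the vesicle and reuptake carriers, the monoamine oxidases and the receptors. A member counted as measured where the platform annotation named it alone for a probeset, which held for 33 of the 38, among 19938 genes measured in all. Each of the 33 had 1 probeset. Adra1a, Adra1d, Adra2a, Adra2b and Adrb1, all noradrenaline receptors, had no probeset under that symbol in the annotation used and were not analysed here.

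RNA was taken from the whole brains of 10 female C57BL/6 mice aged 6 to 8 weeks, and each mouse was measured on 1 Affymetrix mouse gene array. The 5 control mice received aqueous control cream, and the 5 Aldara-treated mice received Aldara cream, which holds 5% imiquimod, a ligand of the RNA sensor TLR7. The paper cites reports of another active component of Aldara cream, isostearic acid, which the control cream lacked, and describes weight loss in Aldara-treated mice. Imiquimod, isostearic acid and weight loss cannot be told apart on these arrays. In both groups 80 mg of cream was put on shaved back skin 5 times at intervals of 24 h. The perfused brains were removed 24 h after the last dose. No transgene or deletion was carried by either group. The comparison asks whether cream on the skin was followed by a different level of monoamine transcripts in the brain.

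Serotonin is made from tryptophan in neurons of the raphe nuclei, dopamine from tyrosine chiefly in the ventral midbrain, and noradrenaline from dopamine in the locus coeruleus and other hindbrain groups. These neurons are few, and their axons reach most of the brain, where the released transmitter acts on receptors made by the target cells and is then taken back up and oxidised. Transcripts for synthesis and reuptake therefore come mainly from small nuclei, and receptor transcripts from widespread neurons and from some glial, vascular and epithelial cells.

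The deposited values are log2 expression values that the authors normalised with RMA, and all differences below are the Aldara mean minus the control mean on that log2 scale. Levels are compared between mice for 1 probeset and not between probesets, and no detection call was used here that would tell a dim probeset from background. The arrays were compared with limma across 23410 probesets, and a gene passed at a Benjamini-Hochberg adjusted p under 0.05 over all of them. Array medians lay between 8.10 and 8.14 in control mice and between 8.16 and 8.19 in Aldara-treated mice. Arrays correlated at 0.998 to 0.999 within the control group, at 0.995 to 0.999 within the Aldara group and at 0.980 to 0.988 between groups. All 12 pan-neuronal markers of the labelled tissue had a probeset, with control means of 9.79 to 13.36, and no detection call says whether they stood above background.

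Transcripts of the monoamine system were mostly lower in the Aldara-treated brains, by small amounts. Of the 33 measured members, 17 fell, 2 rose and 14 did not pass, which is 51.5% lower where 21.0% of all tested probesets were called lower and 12.4% higher. The median difference over the members was -0.14, against -0.046 over all 19938 genes. In 12 members all 5 Aldara-treated mice lay below all 5 control mice, and in 2 all lay above, where 15.3% and 10.5% of all tested probesets did so. The 2 that rose were Htr2b and Maoa. These counts moved with the scaling of the arrays: 23 members were lower and 2 higher with each array centred on a common median, and 11 were lower and 2 higher with the median difference over all probesets set to 0. The brain was measured as a bulk sample, so fewer cells of a type and less RNA per cell cannot be told apart.

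**Figure D1:**
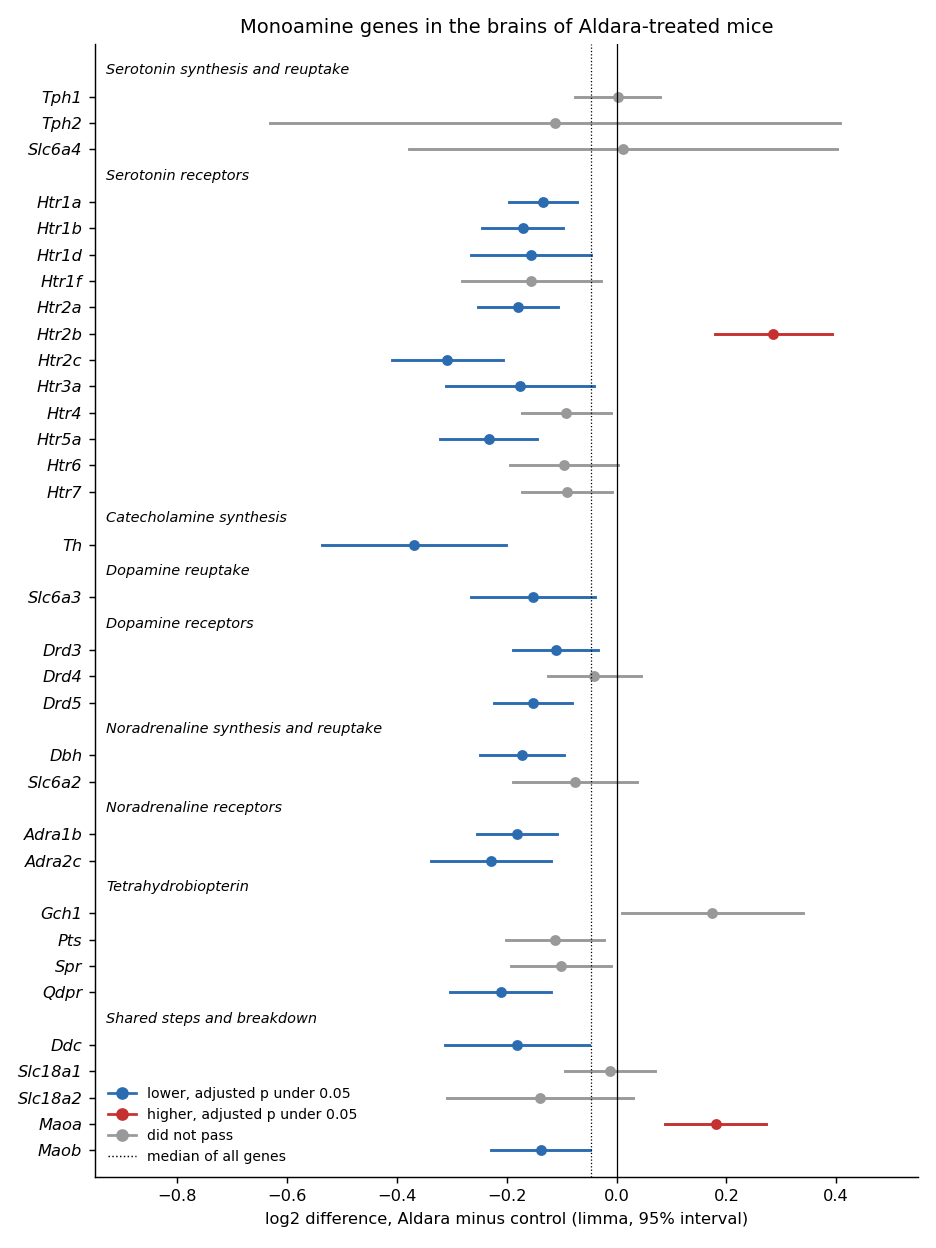
Differences in log2 expression of the 33 measured monoamine genes, Aldara-treated minus control mice (5 arrays each), ordered by role, with 95% confidence intervals. Blue and red points passed at a limma adjusted p under 0.05, grey points did not, and the dotted line is the median of all genes. Of the 33 points 28 lie left of 0, down to -0.37 for Th, where 13825 of all 19938 genes had a negative difference. Htr2b at 0.29 and Maoa at 0.18 are the red points to the right.

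Markers of cell types were also compared, where 22.4% of all 19938 genes were called lower and 11.8% higher. Of 12 pan-neuronal markers 9 fell and none rose, with a median difference of -0.098, including Eno2 (-0.21), Rbfox3 (-0.19) and Syp (-0.17). The mean deviation of this list from the control mean ran from -0.14 to -0.093 in Aldara-treated mice and from -0.033 to 0.031 in control mice, and that of all measured members from -0.13 to -0.070 and from -0.022 to 0.033. All 12 leukocyte and microglia markers rose, with a median of 1.94, among them Fcer1g (3.09), Ctss (2.37) and Tyrobp (1.93). Of 10 astrocyte markers 3 rose, Gfap (1.73), Aqp4 (0.36) and Aldh1l1 (0.36), and 7 fell, including Slc1a2 (-0.57). Of 11 endothelial and mural markers 7 rose, among them Pecam1 (0.96), Cdh5 (0.88) and Cldn5 (0.61). Of 8 measured oligodendrocyte markers Mag (0.11) and Cldn11 (0.29) rose (25%) and Mbp (-0.21) fell (12.5%). When the arrays were shifted to an equal mean of the 12 pan-neuronal markers, a setting chosen after seeing the data that moved the median of all tested probesets from -0.041 to 0.077, 2 members were lower and 5 higher. The part of each cell type in the differences below was not tested.

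**Figure D2:**
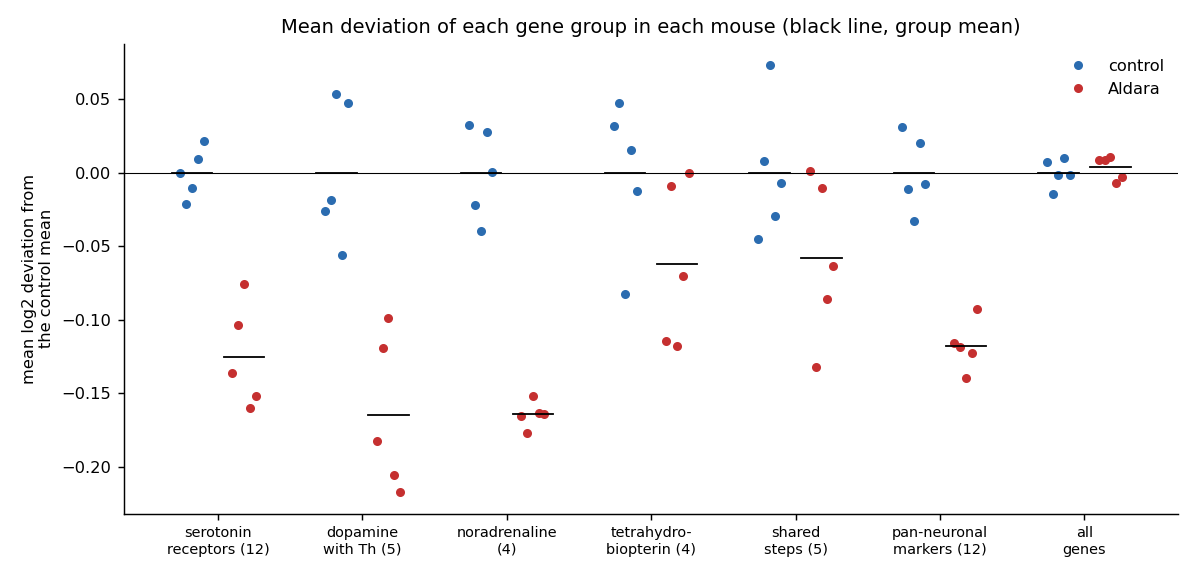
Mean deviation from the control mean on the log2 scale for groups of members, for pan-neuronal markers and for all genes, 1 point per mouse and a line for each group mean. Serotonin is shown by its receptors, without Tph1, Tph2 and Slc6a4. The 5 Aldara-treated mice lie below the control mice for serotonin receptors (-0.16 to -0.075 against -0.021 to 0.022), for dopamine genes with Th, for noradrenaline genes and for pan-neuronal markers (-0.14 to -0.093), and overlap them for the tetrahydrobiopterin genes, the shared steps and all genes.

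Th, the tyrosine hydroxylase that catalyses the first and rate-limiting step of dopamine and noradrenaline synthesis, showed the largest decrease of any member. The log2 values were 8.69, 8.80, 9.04, 8.69 and 9.06 in control mice 1 to 5 and 8.48, 8.56, 8.57, 8.38 and 8.44 in Aldara-treated mice 1 to 5. Every Aldara-treated mouse lay below every control mouse, and the control mice were more spread, with replicates 3 and 5 highest. Th went from 8.86 ± 0.18 to 8.49 ± 0.080 (SD, n = 5 per group), a difference of -0.37 (standard error 0.077, 95% interval -0.54 to -0.20, adjusted p = 0.0030 from limma). On the unlogged scale the level fell by 22.6%. With equal pan-neuronal means the Th difference was -0.25 (adjusted p = 0.033 from limma). That setting raised every difference by the same amount, so Th stayed the lowest member by construction.

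The Th promoter is printed because this gene had the largest difference and because its proximal cyclic AMP response element is a textbook site of its regulation. The 250 bases before the transcript start come from RefSeq on GRCm38.p6, chr7:142899996-142900245 on the minus strand, written 5′ to 3′ in the gene's direction, with motif matches in capitals.
Th: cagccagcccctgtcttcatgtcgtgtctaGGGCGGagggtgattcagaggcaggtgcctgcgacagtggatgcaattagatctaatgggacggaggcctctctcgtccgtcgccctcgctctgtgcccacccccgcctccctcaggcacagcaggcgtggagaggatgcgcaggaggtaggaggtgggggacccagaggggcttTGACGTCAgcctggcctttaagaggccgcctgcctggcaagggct
The capitals mark a GC box (GGGCGG) from base -220 to -215 and a cyclic AMP response element (TGACGTCA) from base -45 to -38, counted back from the start. That element was searched on both strands and occurred in 1.55% of 32851 promoters of this length. Of the 28 measured members with a promoter entry, taking the first entry of each gene, Th alone held it. A GC box occurred in 15 of the 28 and in 32.7% of all promoters, and a CCAAT box (CCAAT) in 10 of the 28 and in 33.8% of all. By direction of the RNA difference, the CCAAT box stood in 8 of the 15 lower members with an entry, in none of the 2 higher ones and in 2 of the 11 that did not pass. The interferon regulatory factor core (AANNGAAA) occurred in 2 of the 28 against 21.3% of all promoters, the gamma-activated site (TTCNNNGAA) in 1 of the 28 against 7.02%, and TATAAA in 3 of the 28 against 12.4%. These matches are descriptions of letters, with no test, and no match in a printed promoter overlapped another.

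Ddc and Dbh, the enzymes downstream of Th, were also lower. Dbh converts dopamine to noradrenaline and marks noradrenergic neurons. Its values were 6.94, 6.96, 6.87, 6.84 and 6.87 in control mice and 6.80, 6.74, 6.73, 6.66 and 6.69 in Aldara-treated mice. The groups did not overlap, and Dbh fell by 0.17 (standard error 0.035, adjusted p = 0.0024 from limma), or by 11.3% unlogged. Ddc, the decarboxylase shared by the serotonin and catecholamine pathways, read 8.23, 8.28, 8.37, 8.11 and 8.28 in control mice and 8.21, 7.90, 8.12, 8.09 and 8.04 in Aldara-treated mice. Aldara replicates 1 and 3 overlapped the control range. Ddc fell by 0.18 (standard error 0.060, adjusted p = 0.035 from limma), a call lost in 7 of the 10 fits that left out an array.

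Slc6a3 and Slc6a2 encode the reuptake carriers of dopamine and noradrenaline and, like Th and Dbh, mark the neurons that make them. Slc6a3 values were 9.19, 9.16, 9.23, 9.10 and 9.29 in control mice and 8.91, 9.17, 9.12, 8.97 and 9.03 in Aldara-treated mice. The groups overlapped through Aldara replicates 2 and 3. The difference was -0.15 (standard error 0.052, 95% interval -0.27 to -0.039, adjusted p = 0.040 from limma), and the call was lost in 7 of the 10 fits that left out an array. For Slc6a2 the control mice stood at 7.15, 7.11, 7.07, 7.34 and 7.08 and the Aldara-treated mice at 7.05, 7.15, 7.00, 7.14 and 7.04. The ranges overlapped, with Aldara replicates 1, 3 and 5 below every control mouse and control replicate 4 highest. The Slc6a2 difference of -0.075 (95% interval -0.19 to 0.037, adjusted p = 0.29 from limma) did not pass.

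Tph2, the tryptophan hydroxylase of serotonergic neurons, and Slc6a4, the serotonin reuptake carrier, showed no difference that stood out from their wide spread. Tph2 values were 7.07, 7.71, 8.09, 7.24 and 7.02 in control mice and 7.91, 6.67, 7.44, 7.33 and 7.22 in Aldara-treated mice. For Slc6a4 they were 7.30, 7.92, 8.07, 7.72 and 7.37 in control mice and 8.13, 7.26, 7.90, 7.68 and 7.48 in Aldara-treated mice. The same mice were high in both genes, control replicate 3 and Aldara replicate 1, and Aldara replicate 2 was lowest in both. The differences were -0.11 (95% interval -0.63 to 0.41, adjusted p = 0.75 from limma) for Tph2 and 0.012 (95% interval -0.38 to 0.40, adjusted p = 0.97 from limma) for Slc6a4, so a change of the size seen for Th lies within both intervals. Tph1, the hydroxylase of the pineal gland and of peripheral tissues, differed by 0.0019 (95% interval -0.075 to 0.079, adjusted p = 0.97 from limma).

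The spread between mice of a group set these 2 genes apart from the other members. The SD pooled within groups was 0.45 for Tph2 and 0.34 for Slc6a4, against 0.035 to 0.14 for the other 31 members and a median of 0.069. Over the 10 mice, with each value taken as its deviation from its own group mean, Tph2 and Slc6a4 correlated at a Pearson r of 0.949 (exact permutation within groups, two-sided p = 0.00028, adjusted p = 0.026) and a Spearman rho of 0.939 (exact p = 0.00097, adjusted p = 0.090). Without the 2 mice farthest from the median of Tph2, r was 0.915. The p-values were adjusted over 93 relations, those of Tph2, Slc6a3 and Dbh with the other members, and the 3 genes were picked after their values were seen. No other relation passed, and by Spearman's rho this one did not. The points share the array on which both genes were read.

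**Figure D3:**
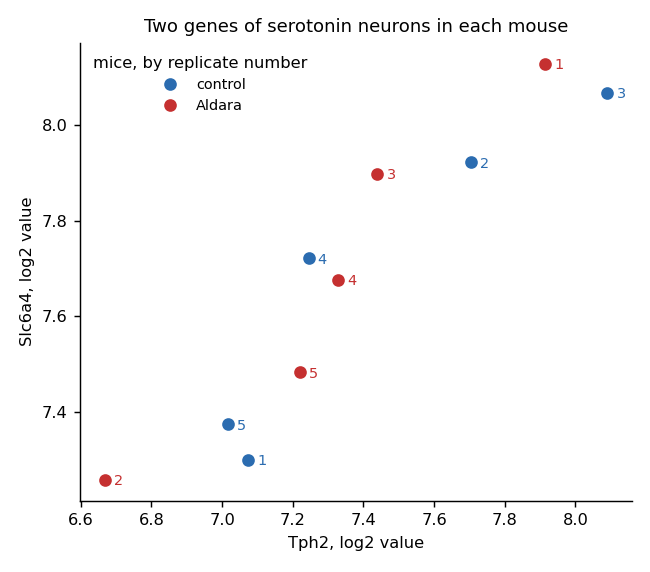
Log2 values of Slc6a4 (y axis) against those of Tph2 (x axis), 1 point per mouse, 5 control (blue) and 5 Aldara-treated (red), with replicate numbers beside the points. Mice high in one gene were high in the other in both groups, with Aldara replicate 2 lowest and control replicate 3 and Aldara replicate 1 highest, and neither group lies to one side of the other.

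Of the 4 genes that make and recycle tetrahydrobiopterin, the cofactor of the tyrosine and tryptophan hydroxylases, only Qdpr passed. That is 25% lower, near the 22.4% of all genes called lower. Pts and Spr were also lower with centred arrays. Qdpr, the reductase that recycles the cofactor, read 11.13, 11.17, 11.10, 11.20 and 11.18 in control mice and 10.89, 10.94, 10.83, 11.01 and 11.05 in Aldara-treated mice. All Aldara-treated mice lay below all control mice, and Qdpr fell by 0.21 (standard error 0.042, adjusted p = 0.0023 from limma). Gch1, the cyclohydrolase of the first step, went the other way, with values of 6.09, 6.23, 5.82, 5.91 and 5.89 in control mice and 6.09, 6.28, 6.06, 6.11 and 6.26 in Aldara-treated mice. Its probeset was dim, at percentile 14.9 of all probeset means. The ranges of Gch1 overlapped, and the difference of 0.17 (95% interval 0.0099 to 0.34, adjusted p = 0.097 from limma) did not pass. Of the 9 other planned settings that tested Gch1 it passed as higher in 1, the replicate number as a block (adjusted p = 0.042 from limma). Of the 10 fits that left out an array it passed in 1, without control replicate 2 (0.23, adjusted p = 0.016 from limma). With equal pan-neuronal means, which raised every difference by the same amount, it was 0.29 (adjusted p = 0.0063 from limma). The later steps of synthesis, Pts and Spr, differed by -0.11 (adjusted p = 0.054 from limma) and -0.10 (adjusted p = 0.085 from limma).

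Slc18a2, the carrier that loads all 3 monoamines into synaptic vesicles of neurons, differed by -0.14 (95% interval -0.31 to 0.030, adjusted p = 0.19 from limma). Its range was 8.16 to 8.48 in control mice and 7.99 to 8.32 in Aldara-treated mice. Slc18a1, the vesicle carrier of neuroendocrine cells, was a dim probeset and differed by -0.012 (95% interval -0.095 to 0.070).

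Maoa and Maob, the oxidases that break down monoamines at the outer mitochondrial membrane, went in opposite directions. Maoa, which prefers serotonin and noradrenaline, read 8.65, 8.70, 8.80, 8.65 and 8.72 in control mice and 8.85, 8.84, 8.84, 8.87 and 9.02 in Aldara-treated mice. No value overlapped, and Aldara replicate 5 was highest. Maoa rose from 8.71 ± 0.061 to 8.89 ± 0.076 (SD, n = 5 per group), a difference of 0.18 (standard error 0.042, 95% interval 0.089 to 0.27, adjusted p = 0.0058 from limma), or 13.3% unlogged. Without Aldara replicate 5 it was 0.15 (adjusted p = 0.0070 from limma). Maob, the oxidase of astrocytes and serotonergic neurons, read 9.47, 9.51, 9.56, 9.48 and 9.63 in control mice and 9.45, 9.30, 9.47, 9.36 and 9.39 in Aldara-treated mice. The groups were separated only narrowly, between control replicate 1 and Aldara replicate 3. Maob fell by 0.14 (standard error 0.041, 95% interval -0.23 to -0.049, adjusted p = 0.022 from limma), a call that did not hold under every setting. The intervals of the 2 differences did not overlap.

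The Maoa promoter is shown beside that of Th because Maoa was 1 of the 2 members that rose. It lies at chrX:16619448-16619697 on the plus strand of GRCm38.p6 (RefSeq).
Maoa: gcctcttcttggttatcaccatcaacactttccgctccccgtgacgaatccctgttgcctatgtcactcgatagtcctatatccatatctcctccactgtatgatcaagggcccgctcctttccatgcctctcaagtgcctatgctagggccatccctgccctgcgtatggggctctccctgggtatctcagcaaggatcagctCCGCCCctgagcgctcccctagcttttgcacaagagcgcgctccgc
The capitals mark a GC box, read on the opposite strand, from base -46 to -41. The cyclic AMP response element of the Th promoter was not matched in these letters.

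Serotonin receptors were the largest group of members, with 12 genes. Of these 7 fell, 1 rose and 4 did not pass, and 11 of the 12 differences were negative, with a median of -0.16. Over all 19938 genes 22.4% were called lower, and 13825 of the differences were negative. With each array centred on a common median 11 genes of the whole serotonin group were lower, and with equal pan-neuronal means 1 was. The mean deviation of the 12 receptors ran from -0.16 to -0.075 in Aldara-treated mice and from -0.021 to 0.022 in control mice. With Tph1, Tph2 and Slc6a4 added, 7 of the 15 serotonin genes were lower (46.7%), with a median of -0.13. The mean deviation of these 15 ran from -0.16 to -0.046 in Aldara-treated mice and from -0.042 to 0.063 in control mice, a narrow separation.

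Htr2c, a Gq-coupled receptor of neurons that is also abundant in the epithelium of the choroid plexus, fell most. It read 10.34, 10.35, 10.53, 10.45 and 10.39 in control mice and 10.16, 9.98, 10.16, 10.15 and 10.07 in Aldara-treated mice. The groups did not overlap, and Aldara replicate 2 was lowest. Htr2c went from 10.41 ± 0.077 to 10.10 ± 0.080 (SD, n = 5 per group), a difference of -0.31 (standard error 0.046, 95% interval -0.41 to -0.21, adjusted p = 0.00033 from limma), or -19.3% unlogged. With equal pan-neuronal means the Htr2c difference was -0.19 (adjusted p = 0.013 from limma). The 2 members called lower there, Th and Htr2c, had the largest decreases before it, and the shift keeps the order of the members. Of 8 measured choroid plexus markers 4 also fell (50%), where 22.4% of all genes did, namely Ttr (-0.82), Kl (-0.50), Clic6 (-0.35) and Folr1 (-0.21). Otx2 (-0.077), Aqp1 (-0.082), Sostdc1 (-0.14) and Kcnj13 (0.12) did not pass. The mean deviation of that list ran from -0.31 to -0.12 in Aldara-treated mice and from -0.078 to 0.15 in control mice. The part of the choroid plexus in the Htr2c difference was not tested.

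Htr2b, a Gq-coupled receptor known best from the heart, gut and blood vessels, was the only serotonin receptor that rose. Its values were 6.19, 6.18, 6.00, 6.24 and 6.21 in control mice and 6.48, 6.49, 6.43, 6.33 and 6.52 in Aldara-treated mice. The groups did not overlap, and control replicate 3 lay below the other control mice. Htr2b rose from 6.16 ± 0.096 to 6.45 ± 0.071 (SD, n = 5 per group), a difference of 0.29 (standard error 0.049, 95% interval 0.18 to 0.39, adjusted p = 0.00084 from limma), or 21.9% unlogged. Without control replicate 3 it was 0.24 (adjusted p = 0.000921 from limma). The probeset was dim, at percentile 19.0 of all probeset means. Leukocyte and microglia markers rose in the same mice by a mean of 1.92 to 2.16, and their part in the Htr2b difference was not tested.

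The promoters of Htr2c and Htr2b are set side by side because these related receptors moved in opposite directions. Both are from RefSeq on GRCm38.p6, Htr2c at chrX:146962263-146962512 on the plus strand and Htr2b at chr1:86111981-86112230 on the minus strand.
Htr2c: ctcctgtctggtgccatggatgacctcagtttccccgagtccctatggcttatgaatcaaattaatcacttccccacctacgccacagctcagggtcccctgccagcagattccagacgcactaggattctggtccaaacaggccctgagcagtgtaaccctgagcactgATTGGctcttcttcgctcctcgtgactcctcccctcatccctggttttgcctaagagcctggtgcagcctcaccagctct
Htr2b: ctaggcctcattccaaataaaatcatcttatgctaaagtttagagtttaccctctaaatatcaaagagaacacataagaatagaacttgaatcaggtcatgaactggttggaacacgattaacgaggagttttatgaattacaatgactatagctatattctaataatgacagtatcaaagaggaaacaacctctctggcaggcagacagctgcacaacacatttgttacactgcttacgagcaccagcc
The capitals in Htr2c mark a CCAAT box on the opposite strand from base -80 to -76. In the Htr2b window none of the 6 motifs was matched.

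Htr2a, the third Gq-coupled receptor of the family and the main target of classical psychedelics in the cortex, read 10.39, 10.35, 10.31, 10.38 and 10.45 in control mice and 10.18, 10.25, 10.24, 10.14 and 10.17 in Aldara-treated mice. All Aldara-treated mice were lower, and Htr2a fell by 0.18 (standard error 0.033, adjusted p = 0.0014 from limma).

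The Gi-coupled receptors, which dampen the firing or transmitter release of the cells that carry them, were mostly lower. Htr1a, the autoreceptor on serotonergic cell bodies that is also made by hippocampal and cortical neurons, read 7.96, 8.01, 8.04, 7.99 and 7.94 in control mice and 7.83, 7.82, 7.90, 7.84 and 7.88 in Aldara-treated mice. Htr1b, the autoreceptor of serotonergic terminals and a receptor of many other axons, read 9.65, 9.59, 9.57, 9.68 and 9.67 in control mice and 9.46, 9.51, 9.51, 9.44 and 9.39 in Aldara-treated mice. Htr5a, another Gi-coupled receptor, read 8.86, 8.70, 8.76, 8.71 and 8.79 in control mice and 8.48, 8.56, 8.59, 8.57 and 8.45 in Aldara-treated mice. In all 3 genes every Aldara-treated mouse lay below every control mouse. They fell by 0.13 (adjusted p = 0.0033 from limma), 0.17 (adjusted p = 0.0022 from limma) and 0.23 (adjusted p = 0.00089 from limma). Htr1d read 7.48, 7.47, 7.43, 7.39 and 7.56 in control mice and 7.30, 7.46, 7.32, 7.17 and 7.29 in Aldara-treated mice. Aldara replicate 2 lay within its control range, and Htr1d fell by 0.16 (adjusted p = 0.031 from limma), a call lost in 7 of the 10 fits that left out an array. Htr1f differed by -0.16 (95% interval -0.28 to -0.029, adjusted p = 0.058 from limma) and did not pass.

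Htr3a, the subunit of the ion channel that serotonin opens on interneurons, read 7.58, 7.40, 7.69, 7.62 and 7.54 in control mice and 7.23, 7.43, 7.51, 7.46 and 7.34 in Aldara-treated mice. The groups overlapped through control replicate 2, and Htr3a fell by 0.18 (standard error 0.061, adjusted p = 0.045 from limma), a call likewise lost in 7 of those 10 fits. The Gs-coupled receptors Htr4, Htr6 and Htr7, which raise cyclic AMP, differed by -0.091 (adjusted p = 0.081 from limma), -0.095 (adjusted p = 0.13 from limma) and -0.090 (adjusted p = 0.086 from limma). None of these 3 passed, although all 3 were called lower with centred arrays, and their differences were 0.026, 0.023 and 0.027 with equal pan-neuronal means. The grouping by coupling was chosen after the values were seen, and no difference between the coupling classes was tested.

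**Figure D4:**
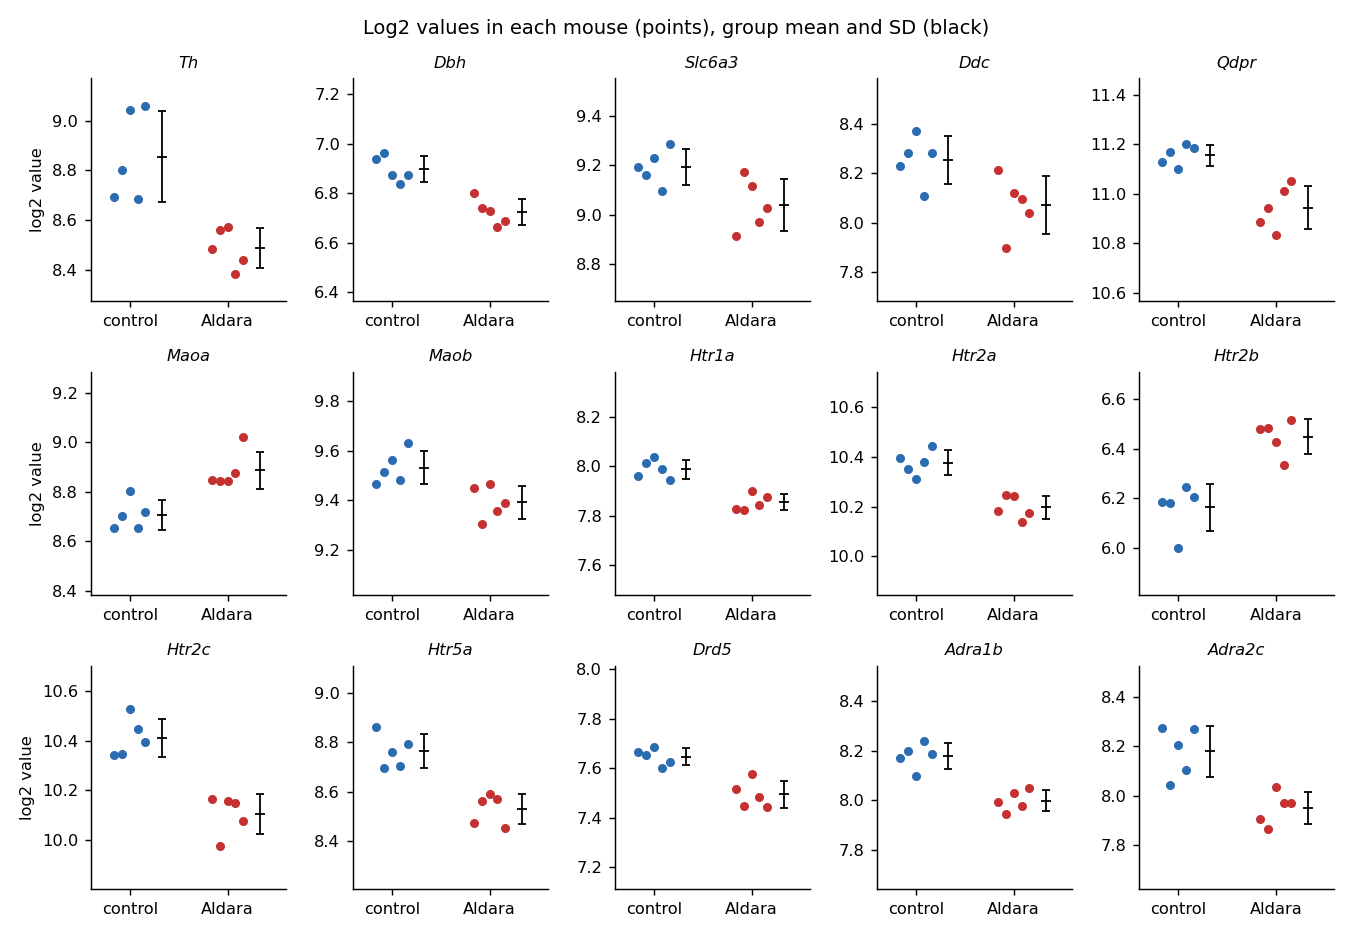
Log2 values (y axis, a separate range for each gene) of 15 of the 19 members that passed, 1 point per mouse (5 control, 5 Aldara-treated), with the group mean and SD in black. The Aldara points lie below the control points except for Htr2b and Maoa, where they lie above, and except for the overlaps in Slc6a3 and Ddc. Not shown are Htr1b, without overlap, and Htr1d, Htr3a and Drd3, whose groups overlap.

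Of the dopamine receptors among the members, Drd5 and Drd3 fell and Drd4 did not pass. Drd5, which raises cyclic AMP, read 7.67, 7.65, 7.69, 7.60 and 7.63 in control mice and 7.52, 7.45, 7.58, 7.49 and 7.44 in Aldara-treated mice. No values overlapped, and Drd5 fell by 0.15 (standard error 0.032, adjusted p = 0.0034 from limma). Drd3, a Gi-coupled receptor of the limbic striatum, read 7.54, 7.66, 7.53, 7.59 and 7.56 in control mice and 7.45, 7.50, 7.53, 7.42 and 7.42 in Aldara-treated mice. Its groups met at control replicate 3 and Aldara replicate 3, and Drd3 fell by 0.11 (standard error 0.035, adjusted p = 0.031 from limma), a call that did not hold under every setting. Drd4 differed by -0.040 (95% interval -0.12 to 0.044, adjusted p = 0.45 from limma). The dopamine genes with Th had a median difference of -0.15, with 4 of 5 lower. Without Th 3 of 4 were lower, where 22.4% of all genes were. That count of 3 was 1 without control replicate 2, without Aldara replicate 1, 4 or 5, and with the median difference over all probesets set to 0.

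Both measured noradrenaline receptors fell. Adra1b, the Gq-coupled receptor, read 8.17, 8.20, 8.10, 8.24 and 8.18 in control mice and 7.99, 7.94, 8.03, 7.98 and 8.05 in Aldara-treated mice. Adra2c, a Gi-coupled autoreceptor that is also made by striatal neurons, read 8.27, 8.04, 8.21, 8.10 and 8.27 in control mice and 7.90, 7.87, 8.04, 7.97 and 7.97 in Aldara-treated mice. Adra1b was clearly separated between the groups, and Adra2c only narrowly, at control replicate 2 and Aldara replicate 3. They fell by 0.18 (standard error 0.033, adjusted p = 0.0012 from limma) and 0.23 (standard error 0.050, adjusted p = 0.0039 from limma). Of the 9 noradrenaline members 4 were measured, and 3 of these 4 were lower, with a median of -0.18, where 22.4% of all genes were lower. No difference between the serotonin, dopamine and noradrenaline groups was tested.

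Genes of the same pathways outside the 38 members fell more often than they rose, as did genes of the whole series. Of 25 listed, 18 were measured, of which 7 fell (38.9%) and 2 rose (11.1%), with a median of -0.096. Over all 19938 genes 22.4% fell and 11.8% rose, with a median of -0.046. Drd1 and Drd2, the main dopamine receptors of the striatum, fell by 0.24 (adjusted p = 0.00036 from limma) and 0.18 (adjusted p = 0.0062 from limma). Ppp1r1b, the phosphoprotein through which striatal neurons relay dopamine signals, fell by 0.42 (adjusted p = 0.00017 from limma), more than any member. Sult1a1, a sulfotransferase of phenols, fell by 0.33, Slc29a4, a low-affinity monoamine carrier, by 0.19, and Pnmt, which makes adrenaline, by 0.15 (adjusted p = 0.00024, 0.0029 and 0.017 from limma). The Pnmt probeset was dim, at percentile 19.6 of all probeset means. The 2 that rose were Aldh1a1, an aldehyde dehydrogenase, by 0.15 (adjusted p = 0.021 from limma), and Slc22a2, an organic cation carrier, by 0.12 (adjusted p = 0.029 from limma), and 0 were called higher without Aldara replicate 4 or with centred arrays. Of the histamine genes all 6 listed were measured, and 2 fell, which is 33.3% against 22.4% of all genes. These were the receptors Hrh3, by 0.20 (adjusted p = 0.0035 from limma), and Hrh2, by 0.096 (adjusted p = 0.047 from limma). The Hrh2 call was lost in 8 of the 10 fits that left out an array and under 6 of 10 other settings.

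Of the transcription factors listed for monoamine neurons, 1 passed. They were read in whole brain, so other cells that make them cannot be told apart, and Otx2 was also listed as a choroid plexus marker. Of the 5 measured factors of serotonergic neurons 0 passed in limma, 0 had an unadjusted p under 0.05 and 0 passed in the methods' t-test, with a median of -0.029. Of the 3 of noradrenergic neurons 0 passed in limma, 1 had an unadjusted p under 0.05 and 0 passed in the methods' t-test, with a median of -0.092. Of the 6 measured factors of dopaminergic neurons, Nr4a2 fell by 0.14 (adjusted p = 0.037 from limma), and the median was -0.076. The Nr4a2 call was lost in 5 of the 10 fits that left out an array and under 3 of 11 other settings. Among 7 mast cell markers 3 fell (42.9%), Kit by 0.17, Mcpt4 by 0.11 and Tpsb2 by 0.13. Among 7 measured pineal markers 2 fell (28.6%), Rom1 by 0.17 and Pde6b by 0.10, where 22.4% of all genes fell. Adjusted p from limma was 0.00083, 0.0049, 0.029, 0.015 and 0.018 in that order. Of the mast cell markers 5 were dim, Mcpt4 at percentile 8.5 of all probeset means, and Pde6b stood at 11.9. The Tpsb2 call was lost under 3 of 10 other settings and in 2 of the 10 fits that left out an array. Under those settings the calls of Pde6b, Mcpt4 and Rom1 were lost 2, 1 and 1 times. The part of mast cells in the Kit difference was not tested. Members of these lists that did not pass are not shown to be at the same level in both groups.

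The calls differed in how far they held over 10 other settings and over leaving out each of the 10 arrays. A filter on dim probesets, 1 of the 10, tested only 14 of the 33 members. Of the 19 members that passed, 13 passed under every setting that tested them and without each array: Th, Dbh, Qdpr, Maoa, Htr1a, Htr1b, Htr2a, Htr2b, Htr2c, Htr5a, Drd5, Adra1b and Adra2c. The other 6, Ddc, Slc6a3, Maob, Htr1d, Htr3a and Drd3, lost the call under at least 1 of them. All 19 kept their sign without each array and under those of the 10 settings that tested them. With equal pan-neuronal means, which is not among the 10, the lower members were Th and Htr2c, and the higher ones Maoa, Htr2b, Gch1, Tph1 and Slc18a1. This setting raised every difference by the same amount, and the sign of Drd3 turned under it. The dim probesets of Tph1 and Slc18a1 differed by 0.0019 and -0.012 before it and by 0.12 and 0.11 under it, so the shift made these 2 calls.

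**Figure D5:**
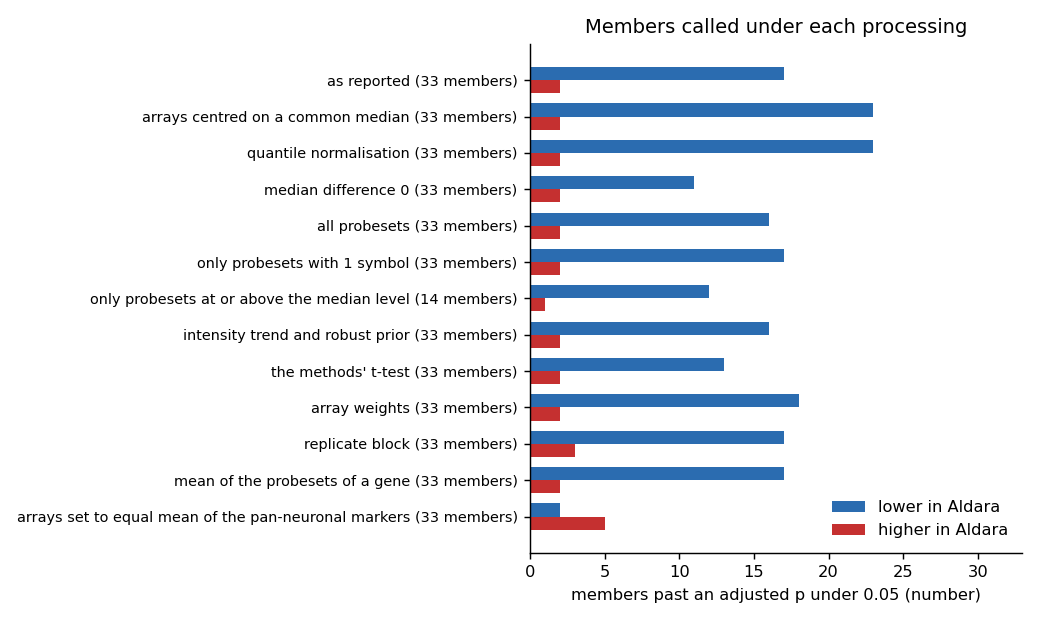
Number of measured members called lower and higher in Aldara-treated mice (limma adjusted p under 0.05) under each setting, with 33 members tested in all but the brighter-probeset setting (14 members). Lower calls range from 11 to 23 over the planned settings that keep all 33 members, and are 2 with equal pan-neuronal means, where higher calls are 5.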

How the data were processed

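RNA from the perfused whole brains of 5 control and 5 Aldara-treated mice was hybridised to 1 Affymetrix mouse gene array per mouse. The values used are log2 expression levels that the authors produced with RMA in the GeneSpring GX software, written RMA 16 in their methods, and deposited. RMA removes background, forces the arrays to a common distribution and condenses the probes of a probeset into 1 value, which can narrow differences between groups. Scanner values were not used, so background correction could not be repeated. A library file, annotation release, version of GeneSpring GX, scan date or batch is not given in the sources used here.

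Groups came from the sample labels, which number the mice as biological replicates. Of 28856 probesets, 21789 carried 1 symbol, 1621 several and 5446 none in the platform annotation, and the 23410 with a symbol were tested. For each gene the probeset with 1 symbol and the highest mean over the 10 arrays was used, and no member's probeset was shared with another symbol. Group differences were fitted in limma 3.58.1 under R 4.3.3 with lmFit and eBayes and without covariates, and Benjamini-Hochberg adjustment covered all 23410 probesets. Relations between members used an exact permutation test within groups.

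The members and lists were chosen with earlier results of these data known. Every member is named, with values for each mouse for those past the threshold and for Th, Tph2, Slc6a2, Slc6a3, Slc6a4 and Dbh. Of the other monoamine pathway genes up to 6 with the smallest p are named, and of histamine genes, factors of monoamine neurons and markers of pan-neuronal, astrocyte, leukocyte and microglia, endothelial and mural, oligodendrocyte, choroid plexus, mast and pineal cells up to 3 each. Aldh1a1, Slc22a2, Aldh1l1 and Folr1 were picked once their values had been seen.

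On simulated data the test was checked in settings with few and with many changed probesets. With 200 of 23410 probesets changed it recovered 29% of log2 differences of 0.15 and 86% of those of 0.3, with 6 false calls among 121, and with 7827 changed it recovered 72.6% and 96.0%, with 249 false calls among 6847. Noise was drawn independently for each probeset, and changes took either sign at random. Deviations shared between genes and shifts of whole arrays were not simulated, so these rates may not hold for the real arrays. The number of arrays limits the precision. Same-numbered mice of the 2 groups deviated together at correlations of -0.11 to 0.25, so the numbers were not taken as pairs. Alternatives were 3 scalings, other sets of probesets, a brightness filter, array weights, the replicate block, a robust prior with an intensity trend, the methods' t-test, the mean of a gene's probesets and leaving out each array. Promoters came from a RefSeq table of GRCm38.p6, in which 28 of the 33 measured members had an entry. PCR, flow cytometry, protein and tissue measurements were not analysed here.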

Additional observations from a re-analysis of the deposited data

Results flagged for a closer look

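Among 66 groups of 5 values, the control and Aldara values of each measured member, 3 held a mouse that stood apart from the rest of its group, where chance sets apart about 1 in 20 groups. Drd4 read 6.88 in Aldara replicate 5, with the other Aldara-treated mice at 7.00 to 7.01, a gap of 0.901 of the group's range. Htr2b read 6.00 in control replicate 3, with the other control mice at 6.18 to 6.24, a gap of 0.742 of the range. Maoa read 9.02 in Aldara replicate 5, with the other Aldara-treated mice at 8.84 to 8.87, a gap of 0.826 of the range.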

How the results depend on the processing

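All 19 members that passed kept their sign without each array and under each of the 10 planned settings that tested them, and 7 of the 14 that did not pass passed under none of them. The mean of a gene's probesets is not counted among the 10, because each member had 1 probeset. Members lower numbered 11 with the median difference set to 0, and serotonin genes lower 11 with centred arrays and 11 after quantile normalisation. Dopamine genes lower were 1 with the median difference at 0. With only the brighter probesets, 14 of 33 members could be tested, and the counts were 1 member higher, 0 serotonin genes higher, 1 dopamine and 0 noradrenaline genes lower. Here the cause lies in the fewer genes tested, and for the scalings the cause was not tested. With the replicate number as a block, 17 members were lower and 3 higher, Gch1 being added, and in the methods' t-test 13 were lower and 2 higher.

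With equal pan-neuronal means, chosen after seeing the data, 2 members were lower and 5 higher, 1 serotonin gene was lower and 2 were higher, and 0 dopamine and 0 noradrenaline genes were lower. The shift raised every difference by the same amount. Under this setting signs turned for Tph2 (0.0059), Htr4 (0.026), Htr6 (0.023), Htr7 (0.027), Drd3 (0.0073), Drd4 (0.077), Slc6a2 (0.043), Pts (0.0057), Spr (0.016), Slc18a1 (0.11), Hrh2 (0.022), Mcpt4 (0.0080) and Pde6b (0.017). Signs also turned for Tph1 (-0.046) and Slc6a4 (-0.037) with centred arrays, for Slc6a4 (-0.034) and Slc18a1 (0.000805) after quantile normalisation, for Drd4 (0.000806) and Slc18a1 (0.029) with the median difference at 0, and for Tph1 (-0.011) with array weights.

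Leaving out each array gave 12 to 18 members lower and 2 to 3 higher, 5 to 7 serotonin genes lower and 1 to 1 higher, 1 to 3 dopamine genes lower (1 without control replicate 2 or Aldara replicate 1, 4 or 5) and 3 to 3 noradrenaline genes lower. Differences ran from -0.012 to 0.028 for Tph1, from -0.26 to 0.054 for Tph2, from -0.099 to 0.12 for Slc6a4 and from -0.031 to 0.010 for Slc18a1. No detection calls were used here, and 4 members, Tph1, Htr2b, Gch1 and Slc18a1, lay below the lower quartile of probeset means (6.67).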
